A study of Mus with 3 samples.

Results

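Adventitial fibroblasts are the collagen-producing cells of the outer wall of airways and large vessels. In single-cell RNA data of mouse lung, 396 of 14441 kept cells were taken as such. UMIs (unique molecular identifiers) count molecules, and a kept cell had 200 or more genes with mitochondrial UMIs at 20% or less. For a barcode found in both DJ-1 KO OVA and WT PBS, the cell with fewer UMIs was left out. A member had at least 3 UMIs of Col1a1, Col1a2 and Col3a1 together and 0 UMIs of Ptprc, Epcam, Cdh5 and Msln. Its Sftpc UMIs were under 2% of its total. Its summed Col14a1, Pi16 and Serpinf1 UMIs exceeded its summed Npnt, Inmt and Ces1d UMIs. The members were thus chosen by the measured UMIs of these 14 genes, whose levels are a description and no finding.

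Total lung cells of female mice aged 6 to 12 weeks were profiled on the 10x platform, whose 3′ v3 chemistry reads transcript ends. The groups were ovalbumin-challenged mice lacking DJ-1 (DJ-1 KO OVA), ovalbumin-challenged wild-type mice (WT OVA) and wild-type mice given PBS (WT PBS). DJ-1 is a redox-sensitive protein encoded by Park7, and ovalbumin is a model allergen. The strain is not given in the sources used here. A group was 1 library made from 3 pooled mice. Group differences therefore have no replicate check, none was tested, and mice within a pool cannot be told apart. A doubt concerns WT PBS, since its title mentions ovalbumin although the treatment field reads PBS, and the treatment field was followed. A DJ-1 KO group given PBS is not analysed here.

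Adventitial fibroblasts surround the bronchovascular bundles, next to nerves, lymphatics and immune cells. They are known for making interstitial collagens, elastin and decorin, and for Pi16, Cd34 and Dpp4, markers of a fibroblast state found in many tissues. In allergic lung they are described as a source of the alarmins IL-33 and TSLP and of the eosinophil chemokine CCL11.

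The members numbered 106 in DJ-1 KO OVA, 163 in WT OVA and 127 in WT PBS. These were 2.39% (95% exact binomial interval 1.96 to 2.88), 2.68% (2.29 to 3.11) and 3.25% (2.72 to 3.85) of the kept cells of those libraries, and each interval overlapped the next. All intervals here cover counting error only. The members held 568041, 701458 and 900135 UMIs, with a median of 4476, 4078 and 6097 UMIs per cell in DJ-1 KO OVA, WT OVA and WT PBS. Levels are given as CPM, the UMIs of a gene per 1000000 UMIs, summed over the members of a library.

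The label fitted its markers. Dcn, which encodes decorin, stood at 4526 CPM in DJ-1 KO OVA, 5707 in WT OVA and 7721 in WT PBS. Lum, which encodes lumican, stood at 516, 441 and 375 CPM in the same order of libraries. Both were lower in alveolar fibroblasts, the cells in which Npnt, Inmt and Ces1d prevailed, with Dcn at 1044, 2038 and 2417 CPM and Lum at 49.4, 54.2 and 25.1 CPM. In B cells with under 3 collagen UMIs, used here as the level of free RNA, Dcn was at 9.97, 17.1 and 6.27 CPM. The 14 other adventitial markers were all detected in every library and summed to 7559, 9087 and 12097 CPM, against 4157, 5617 and 7405 CPM in alveolar fibroblasts. Ackr3, for instance, stood at 234, 403 and 464 CPM in adventitial and 11.4, 26.6 and 30.6 CPM in alveolar fibroblasts. Pcolce2 was lower in adventitial fibroblasts in every library, at 577, 1008 and 1273 against 746, 1292 and 2038 CPM.

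**Figure D1:**
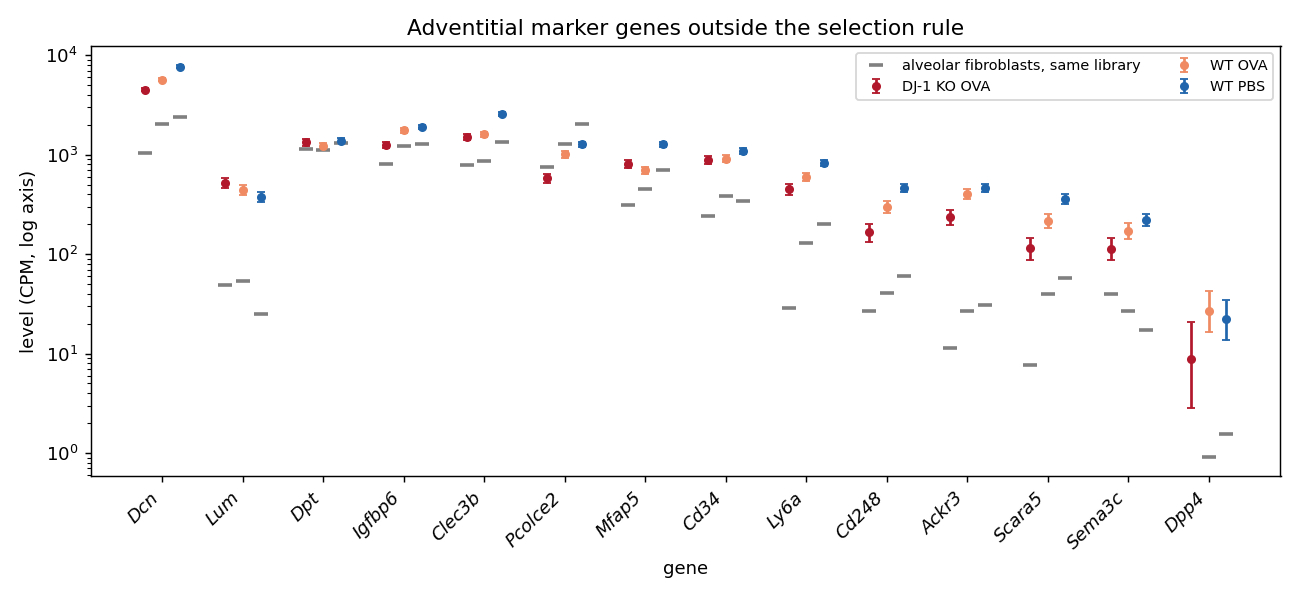
Level in CPM (log axis) of adventitial marker genes that the selection rule did not use, in adventitial fibroblasts of DJ-1 KO OVA, WT OVA and WT PBS (points, with exact Poisson 95% intervals), and in alveolar fibroblasts of the same library (grey dashes). Scara5 ran at 114, 217 and 359 CPM in the 3 libraries, while Dpt stayed between 1229 and 1390 CPM.

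Several defining markers of other cell types had 0 UMIs. The Schwann cell markers Sox10 and Cdh19, the chondrocyte markers Acan, Col2a1 and Matn1, the endothelial markers Kdr and Tie1 and the pericyte marker Higd1b had 0 UMIs in all members. The 8 leukocyte markers summed to 34 UMIs in DJ-1 KO OVA, 153 in WT OVA and 64 in WT PBS, and 1 WT OVA cell held 50.3% of its library's sum. The 4 haemoglobin genes summed to 12, 556 and 70 UMIs. The 6 cycling markers summed to 31, 2 and 1 UMIs. Epithelial markers summed to 453, 587 and 388 UMIs, or 797, 837 and 431 CPM, below the 2014, 5460 and 1422 CPM of all B cells. The epithelial list holds Epcam and Sftpc, which the rule limits in members, so the lower level is in part set by the selection. The leukocyte list likewise holds Ptprc, a gene of the rule. Smooth muscle markers summed to 290, 216 and 171 UMIs and peribronchial fibroblast markers to 150, 255 and 297 UMIs. The peribronchial sums were 264, 364 and 330 CPM, above the 158, 169 and 122 CPM of alveolar fibroblasts. Of these markers, Hhip stood at 1381.5 CPM in the 9 WT PBS members without a Pi16 UMI, against 60.7 CPM in those with one. Aspn was there at 207 against 188 CPM. The part of peribronchial fibroblasts among the members was not tested. Alveolar fibroblast markers summed to 1970, 2652 and 2650 CPM in members and to 7786, 9064 and 10580 CPM in alveolar fibroblasts. That list holds Npnt, Inmt and Ces1d, genes of the rule, so this gap is in part set by the selection and is a description. The part of these RNAs in the results was not tested. A doublet score of at least 0.25 was met by 0, 1 and 0 members, and no doublets were removed.

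Barcodes were shared between libraries. DJ-1 KO OVA and WT PBS shared 372 barcodes, DJ-1 KO OVA and WT OVA shared 5, and WT OVA and WT PBS shared 6. Among the members, 11 DJ-1 KO OVA cells and 1 WT PBS cell carry a barcode also found in the other of these libraries. Without every cell of a shared barcode, 94, 163 and 126 members were left, and the DJ-1 KO OVA members then held 399721 UMIs.

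The rule's cut ran through a continuum. The adventitial sum exceeded the alveolar sum by a single UMI in 5 DJ-1 KO OVA, 21 WT OVA and 3 WT PBS members. Just outside it, 7, 23 and 8 cells had equal sums and 8, 18 and 8 cells had an adventitial sum 1 UMI lower. The median margin was 11, 7 and 16 UMIs.

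Park7 had 15 UMIs (26.4 CPM) in DJ-1 KO OVA members, 40 UMIs (57.0 CPM) in WT OVA and 110 UMIs (122 CPM) in WT PBS. It lies at chr4:150897133-150909921 (GRCm38). The library labelled knockout was lowest and not at 0. Between WT OVA and WT PBS the Park7 log2 ratio was -1.10, and -0.28 with cells thinned to 1000 UMIs. The labels do not give the deleted part of the gene, and a 3′ tag can come from a transcript that makes no protein.

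The genes of highest level and the share of members with Pi16 are given here as a description. Mgp, an inhibitor of matrix calcification, and Gsn, an actin-severing protein, were the highest in level of the genes measured in DJ-1 KO OVA and WT OVA, and were named after their values were seen. Mgp stood at 28804, 22574 and 17804 CPM, and Gsn at 27528, 30437 and 28404 CPM, in DJ-1 KO OVA, WT OVA and WT PBS. Pi16 UMIs were found in 86 of 106, 133 of 163 and 118 of 127 members. Pi16 is a gene of the rule. Members without a Pi16 UMI were shallower, with a median of 3135, 2001 and 4109 UMIs per cell. Those with a Pi16 UMI had a median of 4770, 4433 and 6558.5 UMIs, and the part of depth in these shares was not tested.

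Between WT OVA and WT PBS, which asks what allergen challenge left in these cells, adventitial fibroblasts of WT OVA had more RNA of Ccl7, Lif, Ch25h and Serpina3n and of 7 of 13 measured matricellular and injury response genes. They had less of 4 of 12 measured adventitial markers and of 5 of 9 measured genes of the cholesterol list. A gene was counted as higher or lower past 1.5-fold and as measured with at least 50 UMIs over both libraries. Of 4645 measured genes, 361 (7.77%) were higher and 387 (8.33%) lower, 16.1% in all, and the median log2 ratio was -0.00.

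The chemokines were led by Ccl7, a monocyte chemoattractant at chr11:82045712-82047525 (GRCm38). It stood at 376 CPM in WT OVA (264 UMIs) and 75.5 CPM in WT PBS (68 UMIs), a 4.98-fold difference (95% interval 3.80 to 6.60). Ccl7 UMIs were found in 21.5% of WT OVA and 11.8% of WT PBS members. Ccl11, the eosinophil chemokine eotaxin at chr11:82057832-82062955 (GRCm38), stood at 234 CPM in WT OVA and 123 in WT PBS, which is 1.90-fold (1.48 to 2.43). The share of members with a Ccl11 UMI hardly differed, at 27.6% in WT OVA and 26.8% in WT PBS. Thinned to 1000 UMIs a cell, with 16 and 6 shallower members left out, the shares were 14.3% and 11.6%, and the log2 ratio was 0.18 in place of 0.92. In members with a Pi16 UMI it was larger, at 1.36. The 9 WT PBS members without a Pi16 UMI held 31 Ccl11 UMIs (714 CPM), against 80 UMIs (93.4 CPM) in those with one. In all, 3 of 9 measured chemokines were higher past 1.5-fold and 0 lower, with a median log2 ratio of 0.42. The third was Cxcl2, a neutrophil chemokine, at 509 and 294 CPM, but B cells of those libraries carried 305 and 325 CPM. Ccl2, another monocyte chemoattractant next to Ccl7 in the genome, was at 520 CPM in WT OVA and 592 in WT PBS, a ratio of 0.879 (0.767 to 1.01).

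Of 9 measured cytokines and receptors, 4 were higher and 0 lower, with a median log2 ratio of 0.36. Il6 stood at 563 CPM in WT OVA and 276 in WT PBS, 2.04-fold (1.74 to 2.41). Lif, of the same cytokine family, stood at 147 and 46.7 CPM, 3.15-fold (2.18 to 4.62). Il1r1, the receptor for interleukin-1, was 2.13-fold and Tnfsf13b, the B cell survival factor BAFF, 1.68-fold higher in WT OVA. The alarmins did not go this way. Il33 stood at 98.4 CPM in WT OVA and 143 in WT PBS, 0.686-fold (0.505 to 0.926). Tslp had 13 UMIs in WT OVA and 20 in WT PBS, too few to be measured. With cells weighted alike, the Il6 log2 ratio was 0.55 in place of 1.03 and no longer past the fold.

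Matricellular and injury response genes followed. Of 13 measured, 7 were higher and 0 lower in WT OVA, with a median log2 ratio of 0.80. Postn, which encodes periostin and lies at chr3:54359267-54391041 (GRCm38), stood at 171 CPM in WT OVA and 54.4 in WT PBS, 3.14-fold (2.24 to 4.48). Acta2, smooth muscle actin, stood at 187 and 54.4 CPM, 3.43-fold (2.45 to 4.87). The other smooth muscle markers summed with Acta2 to 216 UMIs in WT OVA and 171 in WT PBS, and the part of muscle cell RNA in the Acta2 values was not tested. Thbs1, an activator of latent TGF-beta, stood at 1886 and 1000 CPM, 1.89-fold (1.73 to 2.06). Tnfaip6, which modifies hyaluronan, was 1.97-fold, Has1, a hyaluronan synthase, 1.75-fold, Ptx3, a soluble pattern recognition protein, 2.02-fold and Runx1, a transcription factor, 2.27-fold higher. Runx1 UMIs were few and its level of 55.6 CPM in WT OVA lay below that of B cells, which express it. Of 6 measured fibrillar collagens 0 passed the fold in either direction, with a median of 0.07. Col1a1, Col1a2 and Col3a1 among them are genes of the rule, so this count is a description. Col1a1 was at 3366 CPM in WT OVA and 4085 in WT PBS. With cells weighted alike, the log2 ratios of Thbs1 (0.56) and Has1 (0.54) were under the fold, and that of Acta2 was 0.89 in place of 1.78.

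Genes of the acute phase and of NF-kB gave 4 higher and 0 lower of 11 measured, with a median of 0.39. Steap4, a metalloreductase, stood at 120 CPM in WT OVA and 55.5 in WT PBS, 2.16-fold (1.5 to 3.12). Cp, the copper carrier ceruloplasmin, stood at 215 and 123 CPM, 1.75-fold (1.36 to 2.25), though its log2 ratio of 0.80 was 0.33 when cells were thinned to 1000 UMIs. Serpina3n, an acute phase protease inhibitor, is counted with the proteases and inhibitors and not among these 4. It was at 669 CPM in WT OVA and 261 in WT PBS, 2.56-fold (2.19 to 3.01).

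The cholesterol list split by role. Ch25h, which makes 25-hydroxycholesterol, had 61 UMIs (87.0 CPM) in WT OVA and 6 UMIs (6.67 CPM) in WT PBS, 13.0-fold (5.66 to 36.9). Abca1, the cholesterol exporter, stood at 134 and 57.8 CPM, 2.32-fold (1.64 to 3.32). Of 9 measured members 5 were lower, and the list's median was -0.59. The synthesis enzymes Hmgcs1 at 0.565-fold, Msmo1 at 0.539-fold, Idi1 at 0.612-fold and Cyp51 at 0.655-fold were among them. Hmgcs1, for instance, stood at 84.1 CPM in WT OVA and 149 in WT PBS, with an interval of 0.409 to 0.773. Idi1, at a log2 ratio of -0.71, was past the fold in 11 of 14 alternatives and at -0.28 when thinned. The interval of Cyp51 reached above 1, at 1.08, and its log2 ratio was 0.89 when thinned.

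The adventitial markers outside the rule had 0 higher and 4 lower of 12 measured and a median of -0.39. Clec3b, which encodes tetranectin, stood at 1600 CPM in WT OVA and 2572 in WT PBS, 0.622-fold (0.579 to 0.668). Mfap5, a microfibril protein, was at 697 and 1271 CPM, 0.549-fold (0.492 to 0.610). Scara5, a ferritin receptor, was 0.604-fold and Cd248, which encodes endosialin, 0.640-fold. The Cd248 log2 ratio of -0.64 was past the fold in 9 of 14 alternatives, and its value nearest 0 was -0.48. It was under the fold, at -0.57, without members of a margin under 3 UMIs, which were more frequent in WT OVA.

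The counts of the remaining lists in WT OVA were as follows, higher before lower. Of 18 measured basement membrane and other collagens, 0 were higher and 2 lower (median 0.04), of 9 small proteoglycans 1 and 0 (-0.04), and of 16 elastic fibre genes 0 and 2 (0.02). Collagen processing had 2 higher and 0 lower of 15 (0.15), with Lox, the lysyl oxidase that crosslinks collagen, at 282 CPM in WT OVA and 160 in WT PBS. Proteases and inhibitors had 2 and 1 of 20 (0.07), complement 0 and 0 of 11 (0.08), TGF-beta and BMP 2 and 1 of 21 (0.05), Wnt 1 and 0 of 8 (0.03), growth factors 1 and 1 of 17 (0.13) and IL-4 and IL-13 signalling 1 and 1 of 4 (0.05). Retinoid genes had 1 and 1 of 10 (-0.18), NRF2 and antioxidant genes 2 and 4 of 28 (-0.01), endoplasmic reticulum chaperones 2 and 2 of 22 (-0.08), heat shock 1 and 1 of 10 (0.11) and immediate early genes 2 and 0 of 22 (0.19). Interferon and MHC class I genes had 4 and 1 of 13 (0.23), fibroblast transcription factors 2 and 0 of 14 (0.05) and prostaglandin and lipid genes 1 and 0 of 9 (0.26).

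**Figure D2:**
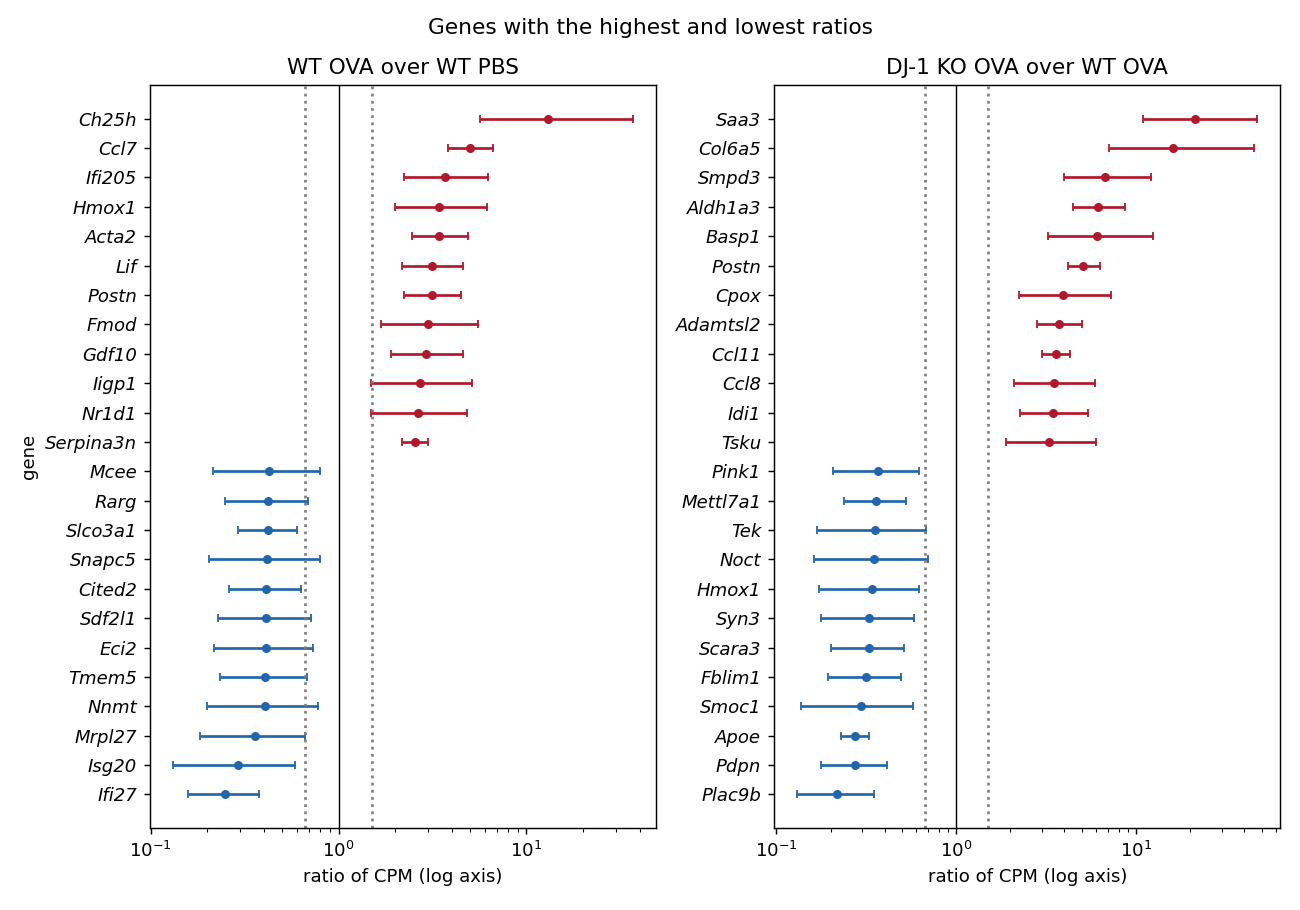
Ratio of CPM (log axis) with exact 95% counting intervals for the top 12 and bottom 12 ranked genes of adventitial fibroblasts, WT OVA over WT PBS on the left and DJ-1 KO OVA over WT OVA on the right. Dotted lines mark 1.5-fold either way. Ch25h and Saa3 led the panels at 13.0-fold and 21.3-fold with wide intervals.

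Among the other genes at the top of the ranking, Ifi205, an interferon-inducible gene, was 3.67-fold, Hmox1, haem oxygenase 1, 3.44-fold and Gdf10, a BMP family ligand, 2.93-fold higher in WT OVA. Hmox1 rested on 51 and 19 UMIs, of which 1 WT OVA cell held 31.4%, and haemoglobin RNA stood in that library at 793 CPM against 77.8 in WT PBS, with its part in the result not tested. Fmod, a small proteoglycan, was 2.99-fold, Iigp1, an interferon-inducible GTPase, 2.72-fold and Nr1d1, a circadian repressor, 2.63-fold higher. With cells weighted alike, the Nr1d1 log2 ratio was 0.60 in place of 1.40 and that of Fmod 0.92 in place of 1.58. Thinned, the Nr1d1 ratio was under the fold, at 0.20. At the bottom, Ifi27, an interferon-inducible gene, stood at 38.5 CPM in WT OVA and 156 in WT PBS, 0.247-fold (0.158 to 0.376). Isg20 at 0.292-fold, Nnmt, a nicotinamide methyltransferase, at 0.407-fold, Sdf2l1, an endoplasmic reticulum protein, at 0.412-fold, Cited2, a transcriptional coregulator, at 0.413-fold and Rarg, a retinoic acid receptor, at 0.421-fold were also low. With cells weighted alike, Sdf2l1 was near equal, at a log2 ratio of -0.18 in place of -1.28. Mrpl27, Tmem5, Eci2, Snapc5, Slco3a1 and Mcee completed the 12, at 0.359 to 0.428-fold.

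Thinning moved other genes of this comparison too. The Cxcl2 log2 ratio was 0.28 in place of 0.79, under the fold. Those of Postn (4.42), Runx1 (3.04), Tnfsf13b (2.46), Ccl7 (3.51), Ifi205 (2.72) and Mrpl27 (-2.28) were larger in size, and that of Ifi27 (-1.13) smaller. Thinned members held only 147000 UMIs in WT OVA and 121000 in WT PBS, so thinned ratios of genes at low levels rest on few UMIs. In a separate thinning, a Postn UMI was found in 13 of 147 WT OVA and 1 of 121 WT PBS members. The Ptx3 log2 ratio had its lowest value over the alternatives at 0.51, under the fold.

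**Figure D3:**
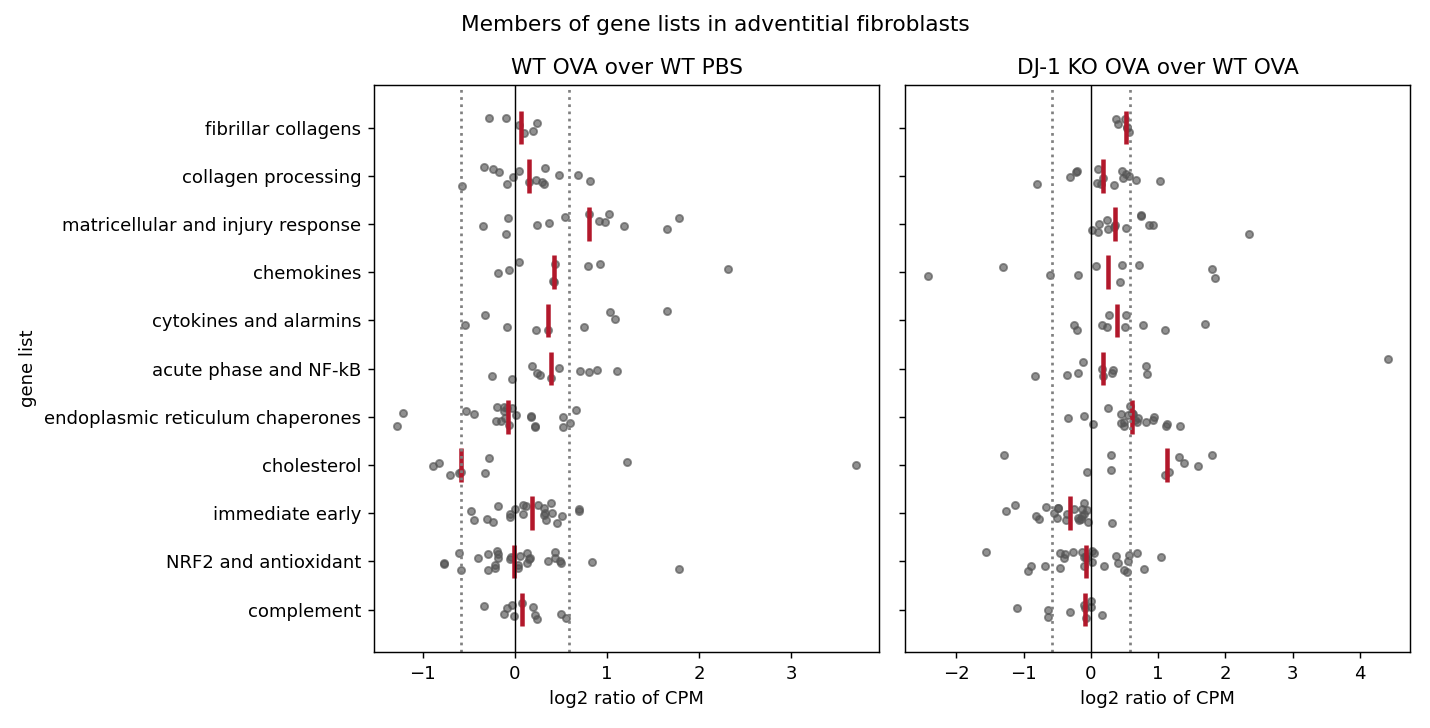
Log2 ratio of CPM of each measured member (grey points) of 11 gene lists in adventitial fibroblasts, with the list's median (red bar), with WT OVA over WT PBS left and DJ-1 KO OVA over WT OVA right. Dotted lines mark 1.5-fold. The cholesterol list had its median at -0.59 in the WT OVA comparison and at 1.14 in the DJ-1 KO OVA comparison.

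Between DJ-1 KO OVA and WT OVA, which asks how challenged lungs with and without DJ-1 differed, adventitial fibroblasts of DJ-1 KO OVA had more Ccl11, Postn, Col6a1 and Col6a2 RNA and more of 11 of 21 measured chaperones and 6 of 10 measured genes of the cholesterol list. They had less RNA of Apoe and Pdpn and of 5 of 22 measured immediate early genes. Of 3928 measured genes, 462 (11.8%) were higher and 310 (7.89%) lower, 19.7% in all, and the median log2 ratio was 0.06. WT OVA serves both comparisons.

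Ccl11 stood at 840 CPM in DJ-1 KO OVA (477 UMIs), against 234 CPM in WT OVA (164 UMIs), 3.59-fold (3.0 to 4.32). It was spread over many cells. A Ccl11 UMI was found in 58.5% of DJ-1 KO OVA and 27.6% of WT OVA members, and in 40.6% and 14.3% of cells thinned to 1000 UMIs, with 5 and 16 shallower cells left out. In B cells thinned alike the shares were 0.935% and 0.119%. The members were 2.39% and 2.68% of kept cells and held 52.9% and 51.2% of all Ccl11 UMIs of their libraries, and 54.4% in WT PBS. Ccl11 in the remaining kept cells other than adventitial fibroblasts stood at 25.7 and 6.71 CPM.

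Other chemokines went both ways. Of 10 measured, 3 were higher and 3 lower, with a median log2 ratio of 0.26. Ccl8, an eosinophil and monocyte chemokine, stood at 109 CPM in DJ-1 KO OVA, against 31.4 CPM in WT OVA, 3.48-fold (2.11 to 5.95). In WT OVA 1 cell held 50% of its 22 UMIs, and the log2 ratio was 2.58 in place of 1.80 without the top cells. Cxcl12, which retains leukocytes and progenitors, was at 597 and 362 CPM, 1.65-fold (1.40 to 1.95). Ccl2 was lower, at 209 CPM in DJ-1 KO OVA, against 520 CPM in WT OVA, 0.403-fold (0.325 to 0.496). Cxcl2 was lower, at 95.1 and 509 CPM, and is counted among the 3 lower. Its DJ-1 KO OVA level lay under the 199 CPM of B cells of that library, so it cannot be told from free RNA. Ccl7 was at 329 and 376 CPM, 0.875-fold (0.721 to 1.06), so its interval held 1. The Ccl7 log2 ratio of -0.19 was -0.99 with cells weighted alike and -1.44 when thinned, both past the fold. Cxcl14, an epithelial and fibroblast chemokine, had a log2 ratio of -0.60, which was -1.31 without cells of shared barcodes and -0.01 when thinned.

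Of 10 measured cytokines and receptors, 3 were higher and 0 lower, with a median of 0.39. Tnfsf13b stood at 391 CPM in DJ-1 KO OVA, against 121 CPM in WT OVA, 3.23-fold (2.5 to 4.19), with a UMI in 54.7% and 25.8% of members. Il33 stood at 169 and 98.4 CPM, 1.72-fold (1.25 to 2.38), beside the 143 CPM of WT PBS. The Il33 ratio was under the fold with cells weighted alike, at a log2 value of 0.40. Il6 was at 806 and 563 CPM, 1.43-fold (1.25 to 1.64), short of the fold. Socs2, a cytokine-induced inhibitor of signalling, stood at 194 and 85.5 CPM, 2.26-fold (1.64 to 3.15). The IL-4 and IL-13 receptor subunits were sparse, and Il13ra1 had 27 UMIs in DJ-1 KO OVA, against 16 UMIs in WT OVA.

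Postn stood at 873 CPM in DJ-1 KO OVA (496 UMIs), 171 in WT OVA (120 UMIs) and 54.4 in WT PBS (49 UMIs). DJ-1 KO OVA was 5.10-fold WT OVA (4.17 to 6.28). Adventitial fibroblasts held 80.5%, 45.8% and 53.3% of the Postn UMIs of these libraries. Few cells carried it, as 27 of 106, 16 of 163 and 10 of 127 members had a Postn UMI. Without all cells of shared barcodes the log2 ratio was 1.71 in place of 2.35. The Postn-positive members of DJ-1 KO OVA had more Aldh1a3, a retinoic acid-forming enzyme, than the Postn-zero members, at 1098 against 144 CPM. They also had more Smpd3, neutral sphingomyelinase 2, at 479 against 50.3 CPM, and more Fn1, fibronectin, at 3952 against 1259 CPM. Their median UMIs were alike, at 4679 against 4394. In WT OVA the Fn1 levels were 3010 against 889 CPM and the Aldh1a3 levels 253 against 34.6 CPM, while Smpd3 had 0 UMIs in the 16 Postn-positive members. In WT PBS, Fn1 was at 2273 CPM in the 10 Postn-positive and 617 CPM in the Postn-zero members. Aldh1a3 was there at 125 against 31.4 CPM and Smpd3 at 67.1 against 20.1 CPM, the latter on 7 and 16 UMIs. The median UMIs of these WT PBS members were 10985 against 5681.

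**Figure D4:**
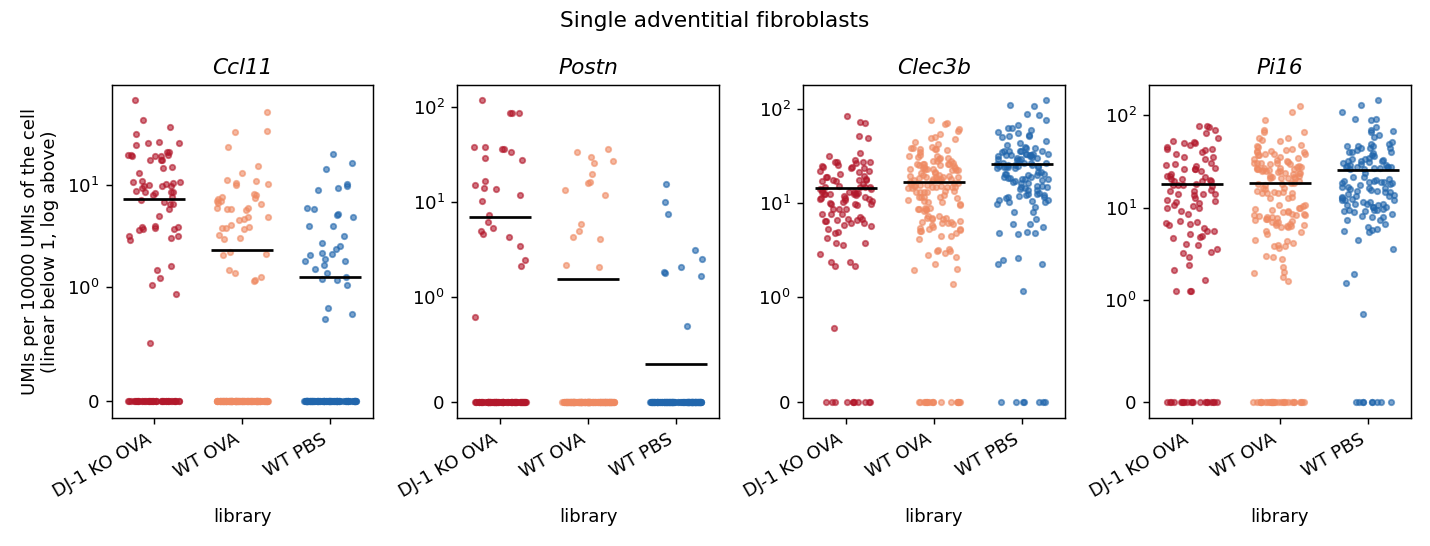
UMIs relative to the total of the cell (linear near 0, log above) of Ccl11, Postn, Clec3b and Pi16 in single adventitial fibroblasts of each library, with the mean over cells as a black bar. Ccl11 UMIs lie in 58.5%, 27.6% and 26.8% of members, and Postn UMIs in 27, 16 and 10 members.

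Over all members, Aldh1a3 stood at 396 CPM in DJ-1 KO OVA, against 64.2 CPM in WT OVA, 6.17-fold (4.47 to 8.70). In WT OVA 1 cell held 44.4% of its Aldh1a3 UMIs, and without the 3 largest cells of each library the log2 ratio was 3.40 in place of 2.63. Smpd3 stood at 164 and 24.2 CPM, 6.76-fold (4.0 to 12.1), with a log2 ratio of 1.76 in place of 2.76 when thinned. Saa3 headed the ranking at 21.3-fold, but 1 DJ-1 KO OVA cell held 93.5% of its 155 UMIs. Without the top cell of each library the Saa3 log2 ratio was 1.33 in place of 4.41, and without cells of shared barcodes 0.96. Col6a5, a collagen VI chain, was 16.1-fold higher with 51.3% of its 78 UMIs in 1 cell and 6 UMIs in WT OVA, and its log2 ratio was 2.70 in place of 4.0 without the 3 largest cells. Basp1, a membrane-bound signalling protein, was 6.07-fold, Cpox, an enzyme of haem synthesis, 3.92-fold, Adamtsl2, a fibrillin-binding glycoprotein, 3.72-fold and Tsku, a secreted proteoglycan, 3.29-fold higher. The Basp1 log2 ratio of 2.60 was 1.69 without cells of shared barcodes. Adamtsl2 stood at 350 CPM in DJ-1 KO OVA, against 94.1 CPM in WT OVA, with a UMI in 42.5% and 20.2% of members. Within DJ-1 KO OVA it was at 193 CPM in Postn-positive and 407 CPM in Postn-zero members.

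Matrix lists gave mixed counts. Of 13 measured matricellular and injury response genes, 5 were higher and 0 lower, with a median of 0.36. Fn1 stood at 1972 CPM in DJ-1 KO OVA, against 1176 CPM in WT OVA, 1.68-fold (1.53 to 1.84), and its log2 ratio of 0.75 was 0.50 with cells weighted alike. Acta2 was 1.68-fold and Tnfaip6 1.89-fold higher. Ptx3 was 1.83-fold higher, but 1 DJ-1 KO OVA cell held 61.9% of its UMIs and the log2 ratio without the top cells was -0.01. Acta2 went under the fold without cells of shared barcodes, at a log2 ratio of 0.53, and without the top cells, at 0.56. The 6 measured fibrillar collagens were all above 1 and 0 passed the fold, with a median of 0.52, which was 0.30 without cells of shared barcodes. As 3 of them are genes of the rule, this is a description. Col3a1, for instance, stood at 5723 CPM in DJ-1 KO OVA, against 3949 CPM in WT OVA, 1.45-fold (1.38 to 1.53). Of the collagen VI chains, Col6a2 stood at 2658 and 1085 CPM, 2.45-fold (2.24 to 2.68), and Col6a1 at 1910 and 1086 CPM, 1.76-fold (1.6 to 1.93). Vcan, the proteoglycan versican, stood at 393 and 221 CPM, 1.78-fold (1.44 to 2.20). Igf1, insulin-like growth factor 1, stood at 563 and 314 CPM, 1.80-fold (1.51 to 2.14).

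Of 21 measured endoplasmic reticulum chaperones, which fold secreted proteins, 11 were higher and 0 lower, and 19 had a ratio above 1. Their median log2 ratio was 0.61, beside 0.06 over all measured genes, and lay between 0.53 and 0.65 over the alternatives. Pdia4, a disulfide isomerase, stood at 394 CPM in DJ-1 KO OVA, against 157 CPM in WT OVA, 2.51-fold (1.99 to 3.19). Pdia6, of the same family, stood at 702 and 322 CPM, 2.18-fold (1.85 to 2.58). Hsp90b1, the chaperone GRP94, stood at 2120 and 1205 CPM, 1.76-fold (1.61 to 1.92). Hspa5, the chaperone BiP, was at 1947 and 1306 CPM, 1.49-fold (1.36 to 1.63), just under the fold. Pdia3, Pdia4, Pdia6 and Hsp90b1 were past the fold in all 14 alternatives. Of the others counted as higher, Hyou1 was past it in 13, Dnajb9 in 12, and Herpud1 and Creld2 in 9. When thinned, the log2 ratio was 0.0009 for Dnajb9, 0.04 for Herpud1 and 1.71 for Creld2. In all kept cells other than adventitial fibroblasts, Pdia4 was at 248 and 110 CPM and Hspa5 at 1352 and 655 CPM. Serpinh1, the collagen chaperone HSP47, stood at 2431 and 1193 CPM, 2.04-fold (1.87 to 2.22), and P4hb, a subunit of prolyl hydroxylase, was 1.6-fold higher.

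Of 10 measured members of the cholesterol list in DJ-1 KO OVA, 6 were higher and 1 lower, with a median of 1.14. Idi1 stood at 153 CPM in DJ-1 KO OVA, 44.2 in WT OVA and 72.2 in WT PBS, 3.47-fold over WT OVA (2.28 to 5.40). Msmo1 stood at 125, 41.3 and 76.7 CPM, 3.02-fold over WT OVA (1.94 to 4.83). Hmgcs1 stood at 181, 84.1 and 149 CPM, 2.16-fold over WT OVA (1.55 to 3.02). The WT OVA level was lowest for each of these 3 genes. Abca1 was the lower member, at 54.6 CPM in DJ-1 KO OVA, against 134 CPM in WT OVA, 0.407-fold (0.262 to 0.617) with a log2 ratio of -0.46 when thinned, and Ch25h stood at 107 and 87.0 CPM, 1.23-fold (0.852 to 1.79). The Ch25h log2 ratio of 0.30 was 1.35 with cells weighted alike, 1.66 when thinned and -0.59 in Pi16-positive cells. Cyp51 was also among the members higher past the fold, but its log2 ratio was 0.37 in place of 1.30 when thinned.

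Immediate early genes, which respond within minutes to stimuli and to tissue dissociation, had 0 higher and 5 lower of 22 measured in DJ-1 KO OVA and a median of -0.31, which was -0.08 without cells of shared barcodes. Atf3, a stress-induced transcription factor, stood at 530 CPM in DJ-1 KO OVA, 1165 in WT OVA and 1435 in WT PBS, 0.455-fold of WT OVA (0.397 to 0.520). Nr4a3, an orphan nuclear receptor, stood at 246 and 589 CPM in DJ-1 KO OVA and WT OVA, 0.419-fold (0.343 to 0.508). Fosb, an AP-1 subunit, was 0.585-fold. Hspa1a and Hspa1b, near-identical copies of HSP70 whose reads can be split, were 0.406-fold and 0.482-fold. Hsph1, a cochaperone of HSP70, went the other way at 2.61-fold (1.62 to 4.29). The part of tissue handling was not tested.

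Among the lowest ratios, Apoe, which carries lipids, stood at 262 CPM in DJ-1 KO OVA, against 955 CPM in WT OVA, 0.275-fold (0.228 to 0.328). Apoe was also lower in B cells of these libraries, at 69.8 and 236 CPM, and the part of free RNA in the result was not tested. Pdpn, the membrane glycoprotein podoplanin, stood at 51.1 and 187 CPM, 0.273-fold (0.176 to 0.411), with a UMI in 14.2% and 42.3% of members. In B cells Pdpn had 0 UMIs in DJ-1 KO OVA and 3.79 CPM in WT OVA. Plac9b was 0.218-fold, but it has a near-identical copy, Plac9a, and its value is uncertain. Scara3, a scavenger receptor-like protein, stood at 44.0 and 134 CPM, 0.328-fold (0.202 to 0.515). Tek, the angiopoietin receptor, at 0.353-fold, Smoc1, an extracellular calcium-binding protein, at 0.295-fold, Fblim1, an adhesion adaptor, at 0.315-fold, Syn3, a synapsin, at 0.329-fold, Noct, a circadian phosphatase, at 0.348-fold and Mettl7a1 at 0.357-fold were also low. Pink1, a mitochondrial kinase of the same inherited parkinsonism group as Park7, stood at 33.4 CPM in DJ-1 KO OVA, against 91.2 CPM in WT OVA, 0.367-fold (0.207 to 0.620), on 19 and 64 UMIs. Hmox1 stood at 24.6 and 72.7 CPM, 0.339-fold (0.173 to 0.622), and its DJ-1 KO OVA level lay under the 27.4 CPM of B cells. The Hmox1 log2 ratio of -1.56 was -0.27 when thinned.

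The NRF2 and antioxidant list had no common direction, with 3 higher and 4 lower of 27 measured and a median of -0.07. Mt2, a metallothionein, stood at 1509 CPM in DJ-1 KO OVA, 731 in WT OVA and 521 in WT PBS, 2.06-fold over WT OVA (1.85 to 2.31). Gpx3, an extracellular glutathione peroxidase, stood at 981, 612 and 343 CPM, 1.6-fold over WT OVA (1.41 to 1.82). The 3 complement genes past the fold, C4b at 0.640-fold, Serping1, the C1 inhibitor, at 0.645-fold and Clu, clusterin, at 0.466-fold, were lower, with a Clu log2 ratio of 0.086 in place of -1.10 when cells were weighted alike, while C3 was at 1887 CPM in DJ-1 KO OVA, against 1992 CPM in WT OVA.

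Adventitial markers outside the rule had 0 higher and 6 lower of 12 measured in DJ-1 KO OVA, with a median of -0.55. Cd248 stood at 165 CPM in DJ-1 KO OVA, 298 in WT OVA and 465 in WT PBS, 0.555-fold of WT OVA (0.431 to 0.712). Scara5 stood at 114, 217 and 359 CPM, 0.528-fold of WT OVA (0.389 to 0.711). Pcolce2, an enhancer of procollagen cleavage, was 0.573-fold, Ackr3, a scavenging receptor for CXCL12, Ly6c1 and Sema3c, a secreted semaphorin, were also past the fold. Cd34 stood at 893, 910 and 1094 CPM, 0.981-fold of WT OVA (0.872 to 1.10), so its interval held 1. The levels of Cd248 and Scara5 fell into the same order of libraries, with DJ-1 KO OVA lowest and WT PBS highest.

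The counts of the other lists in DJ-1 KO OVA were as follows, higher before lower. Basement membrane and other collagens had 3 higher and 3 lower of 18 measured (median 0.14), small proteoglycans 1 and 0 of 8 (-0.31), elastic fibre genes 2 and 2 of 16 (-0.15), collagen processing 2 and 1 of 15 (0.18) and proteases and inhibitors 2 and 3 of 20 (-0.07). TGF-beta and BMP had 3 and 2 of 19 (0.03), Wnt 1 and 1 of 8 (-0.23), growth factors 4 and 0 of 17 (-0.08), retinoid genes 2 and 2 of 9 (-0.04) and IL-4 and IL-13 signalling 2 and 0 of 5 (0.42). Complement had 0 and 3 of 10 (-0.09), heat shock 1 and 2 of 11 (0.13), interferon and MHC class I genes 2 and 1 of 13 (-0.19) and acute phase and NF-kB genes 3 and 1 of 11 (0.17). Fibroblast transcription factors had 0 and 3 of 14 (-0.15) and prostaglandin and lipid genes 2 and 4 of 9 (-0.18). Aldh1a2, a retinoid gene counted as higher, had a log2 ratio of 1.25 that was 0.41 without cells of shared barcodes and 0.03 when thinned. Retnla, counted as higher in the IL-4 and IL-13 signalling list, had a log2 ratio of 2.06. It fell short of the ranking's minimum against B cells or other kept cells.

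Several further ratios of this comparison passed the fold in some alternatives and not in others. The log2 ratio nearest 0 over the alternatives was 0.31 for Acta2, 0.58 for Cxcl12, 0.55 for P4hb, 0.52 for Gpx3, -0.56 for Scara5, -0.54 for Sema3c, -0.56 for Ly6c1 and -0.50 for C4b. Without cells of shared barcodes, Lum had a log2 ratio of 0.61 in place of 0.23. Thinning gave larger sizes for Pdpn (-3.92), Adamtsl2 (2.86), Noct (-2.63), Scara3 (-2.46) and Pink1 (-2.16) and smaller ones for Apoe (-1.22), Mettl7a1 (-0.87), Syn3 (-0.68) and Basp1 (1.76). The thinned DJ-1 KO OVA members held only 101000 UMIs, against 147000 for the thinned WT OVA members. Thinned ratios of genes at low levels therefore rest on few UMIs here too. The part of small counts in these sizes was not tested. The Smoc1 log2 ratio ran between -2.35 and -0.85.

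Alveolar fibroblasts of the same libraries gave values to set beside these, and no difference between the fibroblast types was tested. For WT OVA over WT PBS, Ccl11 was 1.90-fold in adventitial and 1.93-fold in alveolar fibroblasts, and Ccl7 was 4.98-fold and 1.58-fold. Ch25h was 13.0-fold in adventitial and 2.69-fold in alveolar fibroblasts, and Clec3b 0.622-fold and 0.643-fold. Postn was 3.14-fold in adventitial fibroblasts and 0.911-fold in alveolar fibroblasts, whose interval of 0.288 to 2.75 is wide. In the DJ-1 KO OVA comparison, Ccl11 was 3.59-fold in adventitial and 3.92-fold in alveolar fibroblasts. Apoe was 0.275-fold and 0.399-fold, Pdpn 0.273-fold and 0.262-fold, Idi1 3.47-fold and 3.48-fold and Serpinh1 2.04-fold and 1.99-fold in adventitial and alveolar fibroblasts. Adamtsl2 was 3.72-fold in adventitial and 1.62-fold in alveolar fibroblasts, and Acta2 1.68-fold and 4.37-fold. Higher Ccl11 and lower Pdpn in DJ-1 KO OVA thus stood in both fibroblast types.

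**Figure D5:**
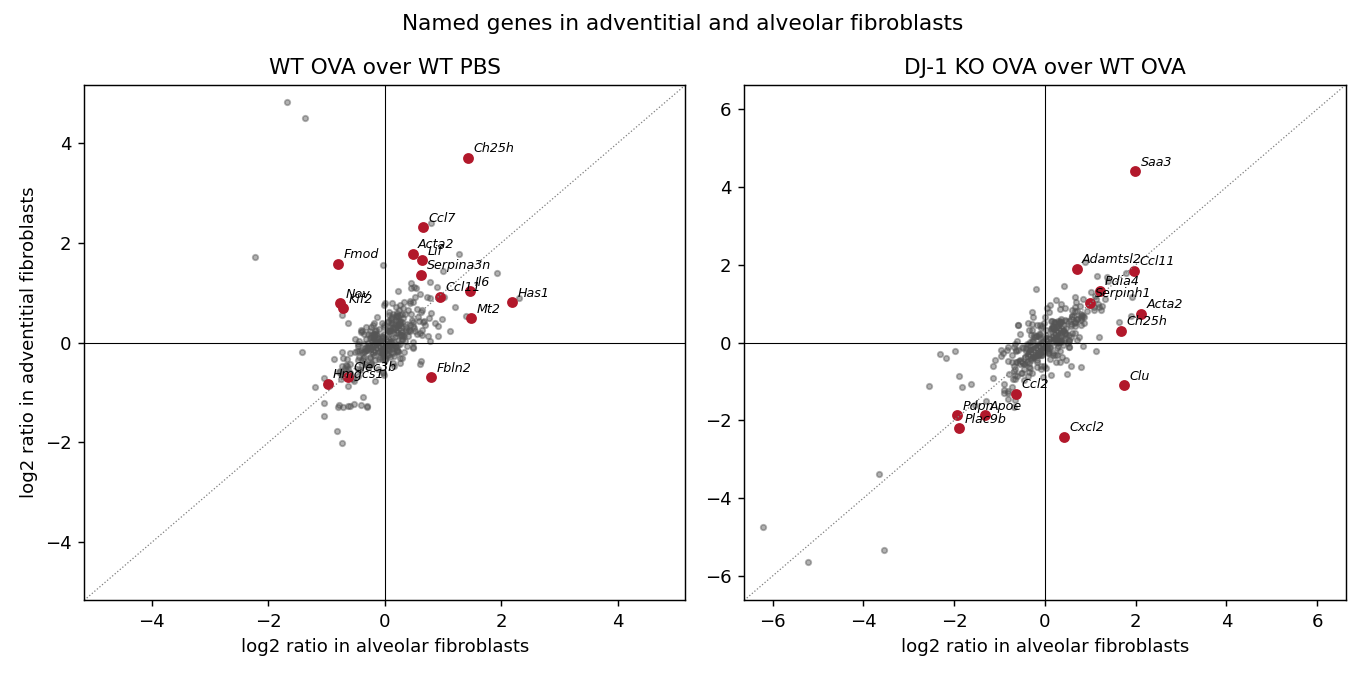
Log2 ratio of CPM in adventitial fibroblasts against that in alveolar fibroblasts for named genes measured in both, WT OVA over WT PBS left and DJ-1 KO OVA over WT OVA right, with labelled genes in red and the line of equality dotted. Unlabelled points far from the rest include haemoglobin genes, of whose WT OVA UMIs 1 adventitial cell held 94.8%. Ccl7 and Ch25h lie above the line of equality in the left panel.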

How the data were processed

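The authors deposited, for 27998 genes, a matrix of raw UMI counts for each library, whose headers name software version 3.1.0. Cell Ranger, STAR and mm10 are named by the submitters' processing notes. The annotation release is not given in the sources used here. Cells were selected by the rule in the report, and UMIs were summed over members of each library and scaled to CPM. Counting intervals are exact Poisson for levels, exact conditional binomial for ratios and Clopper-Pearson for shares, all at 95%. With 1 library a group there was no test. Members and the 24 gene lists (439 distinct genes, 2 list or marker genes missing from the matrices) were chosen with earlier results of these data known. Named genes are Park7, genes of the rule, markers, list members and, per comparison, the 12 highest and 12 lowest ratios. Ranked genes needed at least 50 UMIs, a CPM at least 2 times that of B cells and at least 0.5 of that in other kept cells. The ranking held no mitochondrial, ribosomal, haemoglobin, immunoglobulin or rule genes and no models without a name. B cells had at least 3 UMIs of Cd79a, Cd79b and Ms4a1 together and 0 of Cd3e, Epcam and Cdh5. Their levels for single genes in the report are over those with under 3 collagen UMIs. The ranking, the epithelial sums and the thinned Ccl11 shares did not leave out B cells with more collagen UMIs. Doublets were scored with Scrublet in scanpy 1.11.5 (expected rate 0.06) and kept. Library UMIs of kept cells were 17057738 in DJ-1 KO OVA, 23965624 in WT OVA and 25036637 in WT PBS. The ratio step was tested on simulated Poisson counts, per gene, without cells. Alternatives covered filters, margin, shared barcodes, doublets, scaling, weights, depth and large cells. Those on Pi16, other cell types' RNA, the top cell of a gene and collagen-poor B cells were chosen after seeing the data. Positions are from RefSeq GRCm38.p6. Software comprised matplotlib 3.10.9, pandas 2.3.3, SciPy 1.17.1, NumPy 2.4.6 and Python 3.11.15. Some items are not reported here.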

Additional observations from a re-analysis of the deposited data

Results flagged for a closer look

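In 6 results a gene past 1.5-fold in adventitial fibroblasts was past it the other way in alveolar fibroblasts of the same libraries, and these differences were not tested. For WT OVA over WT PBS, Fbln2, the matrix protein fibulin 2, was 0.619-fold in adventitial and 1.74-fold in alveolar fibroblasts. Its adventitial log2 ratio of -0.69 was past the fold in 11 of 14 alternatives and was -0.30 when thinned. Fmod, fibromodulin, was 2.99-fold in adventitial and 0.576-fold in alveolar fibroblasts. Klf2, a transcription factor, was 1.62-fold and 0.609-fold, and Nov, a matricellular growth factor, 1.73-fold and 0.586-fold. The Nov values rest on 39 UMIs in WT OVA and 29 in WT PBS adventitial fibroblasts. In the DJ-1 KO OVA comparison, Clu was 0.466-fold in adventitial and 3.36-fold in alveolar fibroblasts, with 43.4% of its WT OVA UMIs in 1 adventitial cell. Iigp1 was 0.652-fold and 1.74-fold, on 19 UMIs in DJ-1 KO OVA, against 36 UMIs in WT OVA, adventitial fibroblasts. Its log2 ratio was -0.58 in 1 alternative, under the fold.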

How the results depend on the processing

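No paired analysis was possible because each group is 1 library. The share of WT OVA members was 2.17% with a margin of at least 3 UMIs. Counts of genes past 1.5-fold moved with the UMI minimum. In WT OVA over WT PBS, 886 genes were higher and 969 lower with at least 20 UMIs, 70 and 43 with at least 200 UMIs, and 88 and 66 with cells thinned to 1000 UMIs. DJ-1 KO OVA over WT OVA gave 1137 and 820, 87 and 96, and 88 and 118 under the same settings. A higher minimum leaves fewer genes measured. With cells weighted alike, 606 genes were higher in the WT OVA to WT PBS ratio and 471 lower in the DJ-1 KO OVA to WT OVA ratio. Of 3936 gene results over the alternatives, 257 left the counting interval of the ratio without reversing a gene past the fold, 127 of them in thinned cells. Some genes changed sign, and the cause was not tested. Clu had a log2 ratio of 0.086 with cells weighted alike and 0.76 when thinned in the DJ-1 KO OVA comparison, where Ptx3 had -0.012 without its top cells. In the WT OVA comparison, Cyp51 had 0.89 when thinned and Aldh1a3 -0.20 without the 3 largest cells.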
